A study of Gallus gallus with 3 samples.

Results

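The HOXA cluster genes HOXA2, HOXA3, HOXA4, HOXA5, HOXA6, HOXA7, HOXA9, HOXA10, HOXA11 and HOXA13 were taken by name from the gene list of the deposited tables, where all 10 were found among 16748 genes. They were followed through every annotated cell class of the chicken forelimb field, the part of the trunk wall that forms the wing bud. The embryos were wild type and untreated, male and female together, and were collected at embryonic day 1.5, 2.5 and 3.5, which correspond to Hamburger-Hamilton (HH) stages 10, 14 and 18. Each stage was 1 single-cell RNA library from pooled embryos. The HH10 library had 1210 cells, the HH14 library 1313 and the HH18 library 739. There was therefore no replicate and no test between stages, and the intervals given below cover counting error only.

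HOX genes encode homeodomain transcription factors that give cells their position along the head-to-tail axis. Genes at the 3′ end of a cluster are switched on first and reach farthest forward, and genes toward the 5′ end follow later and farther back. In the limb, the 5′ genes are used again to pattern the upper arm, the forearm and the hand, and in chick and mouse HOX genes of the lateral plate help to place the limb field and its TBX5 expression.

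The libraries held 11855255, 11267879 and 6557527 UMIs (unique molecular identifiers, which count captured RNA molecules) at HH10, HH14 and HH18. Levels are UMIs per 1000000 UMIs of the same cells (CPM), with exact 95% Poisson intervals. Most results concern lateral plate and limb mesenchyme, the union of 7 annotated classes, which held 599 HH10 cells, 598 HH14 cells and 325 HH18 cells. The make-up of this union differed between stages. The class called undifferentiated cluster 7 made up 71.3% of its cells at HH10 and 10.7% at HH14, splanchnic lateral plate 36.0% at HH14, and limb bud mesenchyme 55.4% at HH18. Of its UMIs, on which levels and folds rest, these classes gave 65.5%, 8.61%, 34.5% and 69.1% in the same order. In the limb bud class at HH18 all 9 limb bud markers had UMIs, at a summed 3081 CPM. The forelimb factor TBX5 had 156 CPM in it. Flank lateral plate at HH18 had UMIs of 8 of the 9, at 2928 CPM, so the list hardly separates these classes. All 7 splanchnic and gut markers also had UMIs in the limb bud class at HH18, at a summed 189 CPM. TBX4, the hindlimb counterpart of TBX5, had 0 UMIs in that class at HH18, which allows up to 1.22 CPM. Of the other listed hindlimb markers, ISL1 also had 0 UMIs there and PITX1 had 4. In all mesenchyme PITX1 had 33.6, 8.37 and 6.48 CPM at HH10, HH14 and HH18. TBX5 had 0.794, 25.1 and 142 CPM in the same sums. The bearing of these markers on the HOXA folds between stages was not tested.

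Among the 3′ genes in mesenchyme, the level of HOXA2 hardly varied with stage, and HOXA3 and HOXA4 stayed within 2-fold. HOXA2, which specifies the second pharyngeal arch and part of the hindbrain, had 57.8, 55.4 and 55.0 CPM at HH10, HH14 and HH18. HOXA3, needed in mouse for organs of the third arch such as the thymus, had 37.7, 44.3 and 60.6 CPM. HOXA4, which acts on neck vertebrae in mouse, had 96.9, 74.4 and 119 CPM. The intervals of all 3 stages overlapped for HOXA2, and HH14 lay below both other stages for HOXA4.

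The middle genes fell into a pair that was high at HH18 and a single gene that was high at HH10. HOXA5, which acts in lung and neck skeleton development in mouse, had 97.3, 89.1 and 225 CPM at HH10, HH14 and HH18. HOXA6, a gene of trunk identity in mouse, had 69.1, 75.2 and 187 CPM. HOXA7, which also acts on trunk vertebrae in mouse, had 354, 109 and 196 CPM. Its highest stage was thus HH10, where HOXA5 and HOXA6 were at or near their lowest.

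HOXA9 was the most 5′ gene with an appreciable level. With the other group 9 genes it is needed in mouse for the posterior polarity of the forelimb. It had 30.8 CPM at HH10 (155 UMIs), 25.5 CPM at HH14 (137 UMIs) and 171 CPM at HH18 (608 UMIs). The 3 genes at the 5′ end, which in mouse act on the upper limb, forearm and hand in this order, were close to undetected in mesenchyme. HOXA10 had 2, 0 and 6 UMIs at the 3 stages, HOXA11 had 0 UMIs at each stage, and HOXA13 had 4, 0 and 0 UMIs. A count of 0 allows up to 0.596, 0.558 and 0.846 CPM in the HH10, HH14 and HH18 sums. In all cells of the HH10, HH14 and HH18 libraries, HOXA10 had 6, 1 and 7 UMIs, HOXA11 had 2, 0 and 0, and HOXA13 had 10, 1 and 1.

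**Figure D1:**
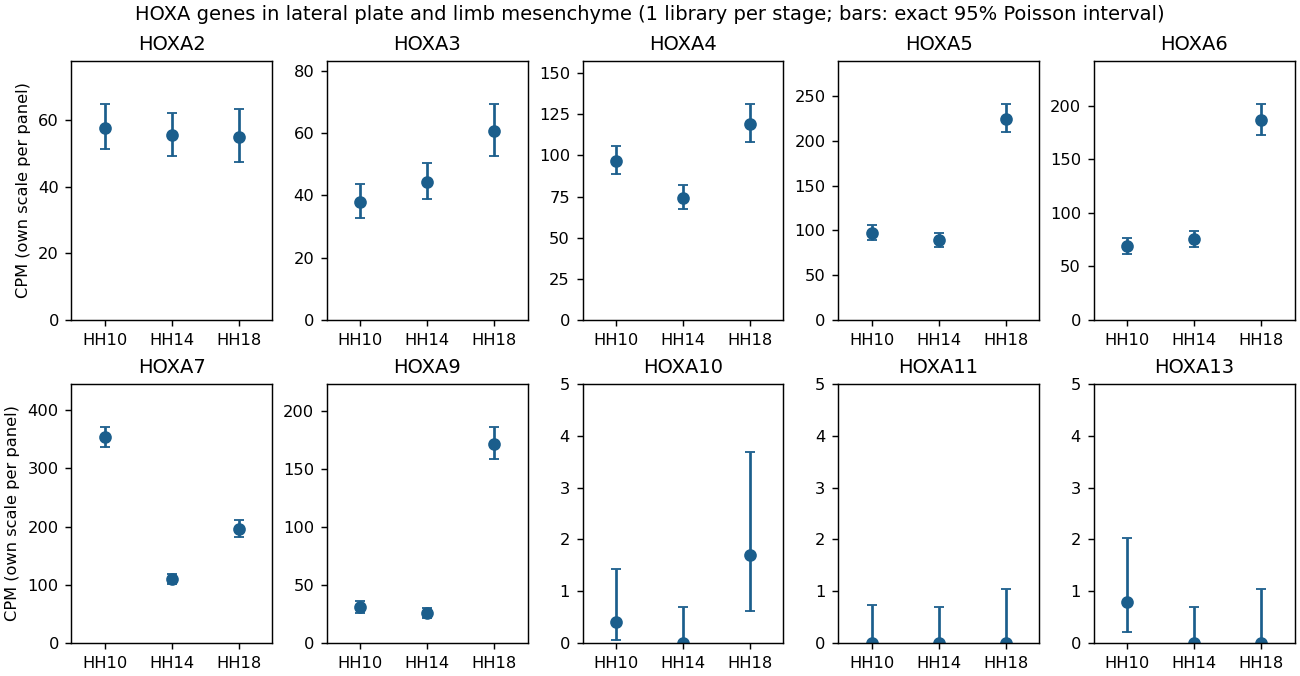
Level of each of the 10 HOXA genes in lateral plate and limb mesenchyme, in UMIs per 1000000 (CPM, vertical axis, with its own scale in each panel) by stage (horizontal axis). Points are the summed cells of 1 library and bars exact 95% Poisson intervals. HOXA5, HOXA6 and HOXA9 are highest at HH18, HOXA7 at HH10, and HOXA10, HOXA11 and HOXA13 lie near 0.

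Between HH14 and HH10, HOXA7 was the only member past 2-fold in mesenchyme. It was at 109 CPM at HH14, against 354 CPM at HH10, a fold of 0.309 (0.281 to 0.339). Of the 10 members, 7 had the 30 UMIs in both sums together that were required, and 0 were higher and 1 was lower by 2-fold or more. Over all 9166 genes with that many UMIs, 4.34% were higher and 2.57% lower. The median log2 fold was -0.13 over the 7 members and 0.05 over all genes. The other 6 folds lay between 0.768 for HOXA4 and 1.17 for HOXA3.

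Between HH18 and HH14, 3 of the 7 members were higher by 2-fold or more and 0 lower, where 3.71% of all 9064 genes were higher and 2.99% lower. HOXA9 had 171 CPM at HH18, against 25.5 CPM at HH14, a fold of 6.72 (5.58 to 8.15). HOXA5 had 225 CPM at HH18, against 89.1 CPM at HH14, which is 2.52-fold, and HOXA6 187 CPM at HH18, against 75.2 CPM at HH14, which is 2.49-fold. The fold of HOXA6 was 1.71, under the threshold, without splanchnic and extraembryonic lateral plate. HOXA7 was 1.79-fold, HOXA4 1.60-fold, HOXA3 1.37-fold and HOXA2 0.992-fold. The folds of the 7 members had a median log2 value of 0.84, against 0.09 over all genes. This comparison and the previous one share the HH14 library.

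Between HH18 and HH10, the same 3 genes were past 2-fold. HOXA9 was 5.57-fold higher at HH18 (4.66 to 6.68), HOXA6 2.70-fold (2.37 to 3.09) and HOXA5 2.31-fold (2.06 to 2.59), and HOXA7 had a fold of 0.554 (0.506 to 0.605). Here 8.18% of 8953 genes were higher and 4.17% were lower. On the log2 scale the members' folds had a median of 0.68, and those of all genes 0.14. The fold of HOXA5 was 1.56 at the lowest of 17 alternatives. It was 1.88 without the limb bud class. With each cell thinned to the same number of UMIs it was 1.94, and without cells in S or G2/M phase 1.95. The fold of HOXA7 was 0.847 without undifferentiated cluster 7, and in all annotated cells it was 0.335, where 4.22% of all genes were lower by 2-fold or more.

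Since the classes differ in share between stages, the same folds were taken within single classes that had 20 or more cells at both stages. The annotated classes are clusters of these same cells, so cells of both stages in a class had been grouped as alike. How far this brings folds within a class toward 1 was not tested. Within the undifferentiated classes HOXA7 was nearly the same at both stages. In undifferentiated cluster 7 it had 402 CPM in 64 cells at HH14, against 419 CPM in 427 cells at HH10, a fold of 0.96 (0.819 to 1.12). In undifferentiated cluster 1 it had 266 CPM in 24 cells at HH14, against 273 CPM in 132 cells at HH10, a fold of 0.975 (0.718 to 1.30). At HH14 undifferentiated cluster 7 gave 31.6% of the mesenchymal HOXA7 UMIs from 8.61% of all mesenchymal UMIs. Splanchnic lateral plate gave 10.4% of them from 34.5% of all UMIs.

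HOXA7 was lower at HH14 in every class compared outside the mesenchyme. In the first ectoderm cluster it had 141 CPM at HH14, against 808 CPM at HH10, a fold of 0.175 (0.142 to 0.215), and 3.32% of all genes measured there were lower by 2-fold or more. In blood vessels it had 169 CPM at HH14, against 723 CPM at HH10 (0.233-fold), where 6.41% of genes were lower. In endoderm it had 150 CPM at HH14, against 620 CPM at HH10 (0.241-fold), where 7.23% were lower. In cells annotated as low count it had 94.4 CPM at HH14, against 460 CPM at HH10 (0.205-fold), where 2.69% were lower. HOXA7 was high in all 8 classes of the HH10 library with 20 or more cells, at 273 to 808 CPM. It was lower in 3 small mesenchymal classes of that library. There 15 somatopleure cells had 0 HOXA7 UMIs, which allows up to 46.3 CPM, 18 splanchnic cells had 2 UMIs, or 15.2 CPM, and 7 extraembryonic lateral plate cells had 5 UMIs, or 51.9 CPM.

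HOXA9 differed from HOXA7 within undifferentiated cluster 7. It had 84.2 CPM at HH14, against 31.5 CPM at HH10, a fold of 2.67 (1.80 to 3.89), although in all mesenchyme its fold was 0.828 (0.653 to 1.05). With splanchnic and extraembryonic lateral plate left out of the mesenchyme, that fold was 1.42, the highest of 17 alternatives. The lowest of them was 0.6. In undifferentiated cluster 1 HOXA9 had 50.2 CPM at HH14 (10 UMIs), against 33.9 CPM at HH10 (49 UMIs). HOXA6 was 1.66-fold (1.21 to 2.25) in cluster 7 and 1.85-fold (1.19 to 2.80) in cluster 1. In cluster 1 HOXA3 was lower at HH14 by 2-fold or more, at 15.1 CPM, against 41.5 CPM at HH10 (60 UMIs). The HH14 value rests on 3 UMIs in 24 cells. The share over all genes past 2-fold is not given for cluster 1, so no count of members is read there. Of 7029 genes in cluster 7, 2.38% were higher by 2-fold or more at HH14 and 5.59% lower, and of the 7 members with enough UMIs HOXA9 alone passed.

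Between HH18 and HH14, 4 mesenchymal classes could be compared, and HOXA9 had the highest fold of the measured members in limb bud mesenchyme, flank and somatopleure. In flank its interval also holds the folds of HOXA5, HOXA6 and HOXA7. In limb bud mesenchyme it had 188 CPM in 180 cells at HH18, against 34.6 CPM in 21 cells at HH14, a fold of 5.42 (3.0 to 10.9). In flank lateral plate it had 159 CPM at HH18, against 34.5 CPM at HH14, a fold of 4.60 (2.02 to 12.9). In somatopleure it had 134 CPM at HH18, against 34.6 CPM at HH14, a fold of 3.88 (2.54 to 5.95). The HH14 levels of these 3 classes were thus close to each other, and so were their folds, whose intervals overlap.

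In limb bud mesenchyme HOXA9 was the 1 member of 7 past 2-fold, where 6.88% of 6849 genes were higher and 1.8% lower. HOXA5 was 1.55-fold (1.16 to 2.11), HOXA6 1.56-fold (1.13 to 2.21) and HOXA7 1.36-fold (1.01 to 1.87), and HOXA4 was 0.971-fold (0.697 to 1.39). In somatopleure HOXA9 was again alone past 2-fold, with 2.61% of 5021 genes higher there and 3.37% lower, and HOXA7 was 1.95-fold. In flank lateral plate 4 of 7 members were higher by 2-fold or more, where 6.08% of 3320 genes were higher and 0.813% lower. Besides HOXA9, HOXA5 was 3.63-fold, HOXA7 3.41-fold and HOXA6 2.45-fold. The HH14 sums of the flank class were small, with 6 to 20 UMIs per member in 24 cells.

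The fourth class, splanchnic lateral plate, had 21 cells at HH18 and large folds for HOXA6 and HOXA7. HOXA9 had 19 UMIs in 21 cells at HH18 (128 CPM), against 5 UMIs in 215 cells at HH14 (2.70 CPM), a fold of 47.4 (17.1 to 162), which falls under the required 30 UMIs. HOXA7 was 9.41-fold higher at HH18 (6.27 to 14), HOXA6 6.53-fold (4.15 to 10.1), HOXA4 2.99-fold (1.65 to 5.12) and HOXA5 2.20-fold (1.31 to 3.52). These 4 of 6 members with enough UMIs compare with 5.65% of 5996 genes higher and 9.09% lower in the class. HOXA2 was 0.624-fold (0.224 to 1.40) and HOXA3 1.21-fold (0.471 to 2.63), with 6 and 7 UMIs at HH18. The summed splanchnic markers had 1452 CPM at HH18 and 881 CPM at HH14. At HH18 the markers GATA4 and BARX1 were at 0, and at HH14 all 7 had UMIs. The HH18 sum of the class held 148711 UMIs, against 1855115 at HH14, so a 0 at HH18 allows up to 20.2 CPM. The summed ectoderm markers had 4283 CPM at HH18 and 3115 CPM at HH14 in this class. Of these 8 markers, TFAP2A, WNT7A, FGF8 and DLX5 were at 0 in it at HH18. The sum is not particular to ectoderm, since at HH14 it was 6811 CPM in gut and 1959 CPM in the second ectoderm cluster. The part of these markers in the result was not tested. Without this class, the HH18 over HH14 fold of all mesenchyme was 1.91 for HOXA6, and without it and extraembryonic lateral plate it was 1.71 for HOXA6, 1.11 for HOXA7 and 3.90 for HOXA9.

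Outside the lateral plate, the fold of HOXA9 was under 2 in amnion, with an interval that reaches past 2, and in the second ectoderm cluster. In the first ectoderm cluster HOXA9 to HOXA13 together had 13 UMIs at HH14 and 3 at HH18, too few to compare. In amnion HOXA9 had 72.9 CPM at HH18, against 38.5 CPM at HH14, a fold of 1.89 (1.21 to 2.95). In the second ectoderm cluster it had 48.7 CPM at HH18, against 44.9 CPM at HH14, a fold of 1.08 (0.695 to 1.69). The interval of amnion overlaps those of flank and somatopleure, and that of the second ectoderm cluster lies below that of somatopleure. In low count cells, which carry no tissue name, HOXA9 had 176 CPM at HH18, against 37.3 CPM at HH14, a fold of 4.71 (2.61 to 9.03), where 2.45% of all genes were higher by 2-fold or more.

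**Figure D2:**
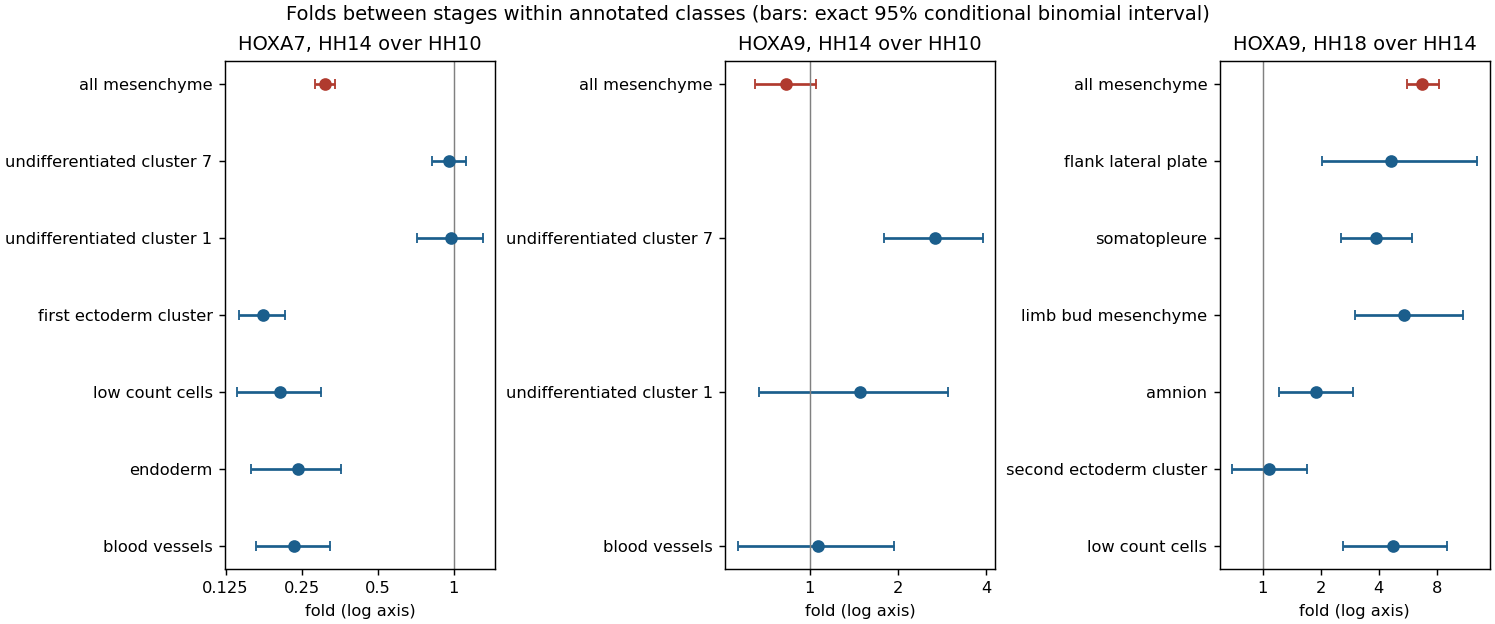
Fold between stages (horizontal, log axis) of HOXA7 and HOXA9 in each annotated class with 30 or more UMIs in both sums together (blue) and in all mesenchyme (red). Bars are exact 95% conditional binomial intervals and the grey line marks a fold of 1. HOXA7 lies near 1 in both undifferentiated classes and at 0.309 in all mesenchyme, and HOXA9 is 3.88-fold to 5.42-fold higher at HH18 than at HH14 in somatopleure, flank and limb bud.

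Classes of the same library can be compared without a difference in stage or library. At HH14, splanchnic lateral plate, the layer toward the gut, had lower levels of most HOXA genes than somatopleure, the layer toward the body wall. HOXA2 and HOXA3 did not differ between the layers beyond counting error. HOXA2 had 64.7 CPM in splanchnic cells, against 49.8 CPM in somatopleure, and HOXA3 had 38.8 CPM, against 37.0 CPM. These are folds of 1.30 (0.948 to 1.79) and 1.05 (0.715 to 1.55). For the next genes of the cluster the folds were 0.372 (0.274 to 0.501) for HOXA4, 0.629 (0.485 to 0.814) for HOXA5, 0.338 (0.246 to 0.461) for HOXA6 and 0.333 (0.241 to 0.456) for HOXA7. HOXA9 had 5 UMIs in 215 splanchnic cells (2.70 CPM), against 43 UMIs in 165 somatopleure cells (34.6 CPM), which is 0.078-fold (0.0241 to 0.197).

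Thus 4 of 7 members were lower by 2-fold or more in splanchnic cells and 0 higher, where 1.75% of 6846 genes were lower and 9.64% higher. Gut, a class of 50 cells at HH14 in the same annotation, had 0 HOXA9 UMIs, which allows up to 9.10 CPM. It had 36.4 CPM of HOXA7 and 36.4 CPM of HOXA5. Extraembryonic lateral plate had higher levels of most members than splanchnic lateral plate. HOXA7 had 98.0 CPM there, against 32.9 CPM in splanchnic cells (2.98-fold, 2.16 to 4.14), and HOXA6 73.0 CPM, against 34.0 CPM (2.15-fold, 1.53 to 3.04). HOXA9 had 23 UMIs, against 5 in splanchnic cells, which are too few together. HOXA4 was 1.77-fold (1.26 to 2.48), HOXA3 1.74-fold (1.25 to 2.44) and HOXA5 1.35-fold (1.02 to 1.78). In that pair 2 of 6 members were past 2-fold, where 3.77% of 7036 genes were higher and 3.14% lower, and HOXA2 was 0.785-fold (0.562 to 1.08). The median log2 fold was 0.81 over the 6 members and 0.16 over all genes.

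**Figure D3:**
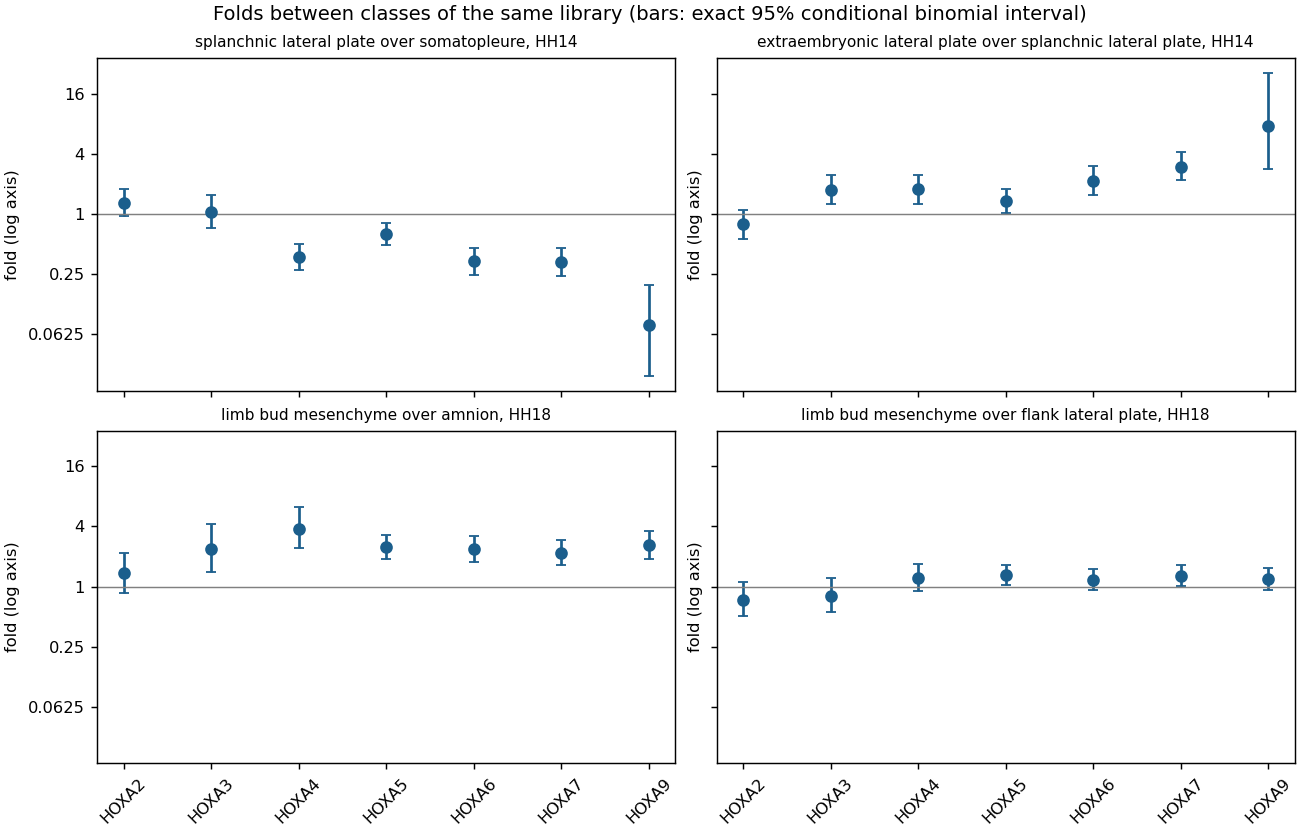
Fold between classes of the same library (vertical, log axis) for the 7 HOXA genes with appreciable levels, in cluster order (horizontal). Bars are exact 95% conditional binomial intervals and the grey line marks a fold of 1. Splanchnic lateral plate over somatopleure at HH14 lies near 1 for HOXA2 and HOXA3 and at 0.078 for HOXA9, and limb bud over flank at HH18 lies between 0.740 and 1.29 for all 7.

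At HH18, limb bud mesenchyme did not differ by 2-fold from its neighbours in the body wall for any member. Against flank lateral plate the folds ran from 0.740 for HOXA2 (0.504 to 1.11) to 1.29 for HOXA5 (1.04 to 1.63). HOXA9 had 188 CPM in limb bud, against 159 CPM in flank, a fold of 1.18 (0.925 to 1.53). Of 7043 genes, 5.03% were higher by 2-fold or more in limb bud than in flank and 4.52% lower, with 0 of the 7 members in either direction. Against somatopleure the folds ran from 0.989 for HOXA4 to 1.70 for HOXA3 (0.980 to 3.18), again with 0 members past 2-fold, where 14% of 6869 genes were higher and 1.53% lower. HOXA5 had 243 CPM in limb bud, against 165 CPM in somatopleure, and HOXA6 196 CPM, against 131 CPM. HOXA9 had 188 CPM, against 134 CPM, and HOXA7 201 CPM, against 193 CPM. Counts of 0 of 7 lie near the shares over all genes and are not read as a trait of the members.

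Limb bud mesenchyme did differ from amnion, the extraembryonic membrane. Of 7 members, 6 were higher by 2-fold or more, where 7.52% of 7219 genes were higher and 7.56% lower. HOXA4 had 122 CPM in limb bud, against 32.4 CPM in amnion (3.78-fold, 2.40 to 6.27). HOXA9 had 188 CPM in limb bud, against 72.9 CPM in amnion (2.57-fold, 1.89 to 3.58). HOXA5, HOXA6, HOXA3 and HOXA7 were 2.46-fold, 2.37-fold, 2.36-fold and 2.18-fold, and HOXA2 was 1.35-fold (0.870 to 2.19). In amnion HOXA4 had 32.4 CPM at HH18 and 30.3 CPM at HH14, so its level there hardly varied with stage.

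At HH10, primitive mesoderm, a class of 301 cells, had higher levels of most members than undifferentiated cluster 7. HOXA9 had 69.2 CPM there, against 31.5 CPM in undifferentiated cluster 7, a fold of 2.19 (1.75 to 2.76). HOXA7 had 787 CPM in primitive mesoderm, against 419 CPM in cluster 7 (1.88-fold, 1.77 to 2.0), and HOXA2 69.8 CPM, against 61.0 CPM (1.15-fold, 0.956 to 1.37). HOXA3, HOXA4, HOXA5 and HOXA6 were 1.43-fold, 1.37-fold, 1.37-fold and 1.22-fold. The 1 member of 7 past 2-fold, HOXA9, compares with 5.05% of 8577 genes higher and 1.17% lower. The median log2 fold was 0.46 over the 7 members and 0.19 over all genes, so genes in general were also somewhat higher in primitive mesoderm. Between undifferentiated cluster 1 and cluster 7, 0 of 7 members were past 2-fold, where 8.8% of 7706 genes were higher and 1.52% lower. HOXA7 had 273 CPM in cluster 1, against 419 CPM in cluster 7 (0.652-fold, 0.582 to 0.730), and HOXA4 was 0.667-fold.

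Over all 33 combinations of class and stage with 20 or more cells, HOXA7 had the widest range of levels in CPM. Its lowest level was 32.9 CPM in splanchnic lateral plate at HH14 and its highest 808 CPM in the first ectoderm cluster at HH10. Of the 528 pairs of these combinations, 79.7% had a HOXA7 fold whose interval left out 1, against 28.4% for HOXA2, a share that also grows with the number of UMIs. HOXA9 ranged from 0 UMIs in gut at HH14 to 188 CPM in limb bud mesenchyme at HH18. HOXA5 was also highest in limb bud mesenchyme at HH18, at 243 CPM, next to 240 CPM in primitive streak at HH10. HOXA2 was highest in low count cells at HH10 (117 CPM) and in somitic mesoderm at HH14 (102 CPM), and lowest in blood vessels at HH10 (15.1 CPM).

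When the combinations were ranked by level, neighbours in the order did not differ beyond counting error in any of 32 pairs for 9 of the 10 genes, and in 31 of 32 for HOXA6. For HOXA10, 8 of the 33 combinations had any UMI, for HOXA13 also 8, and for HOXA11 1. The highest HOXA10 level was 7.73 CPM, in somatopleure at HH18. It rests on 3 UMIs, the level that a count of 0 would also allow there. In limb bud mesenchyme at HH18 the 5′ genes HOXA10, HOXA11 and HOXA13 had 0 UMIs each in 2451866, which allows up to 1.22 CPM.

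**Figure D4:**
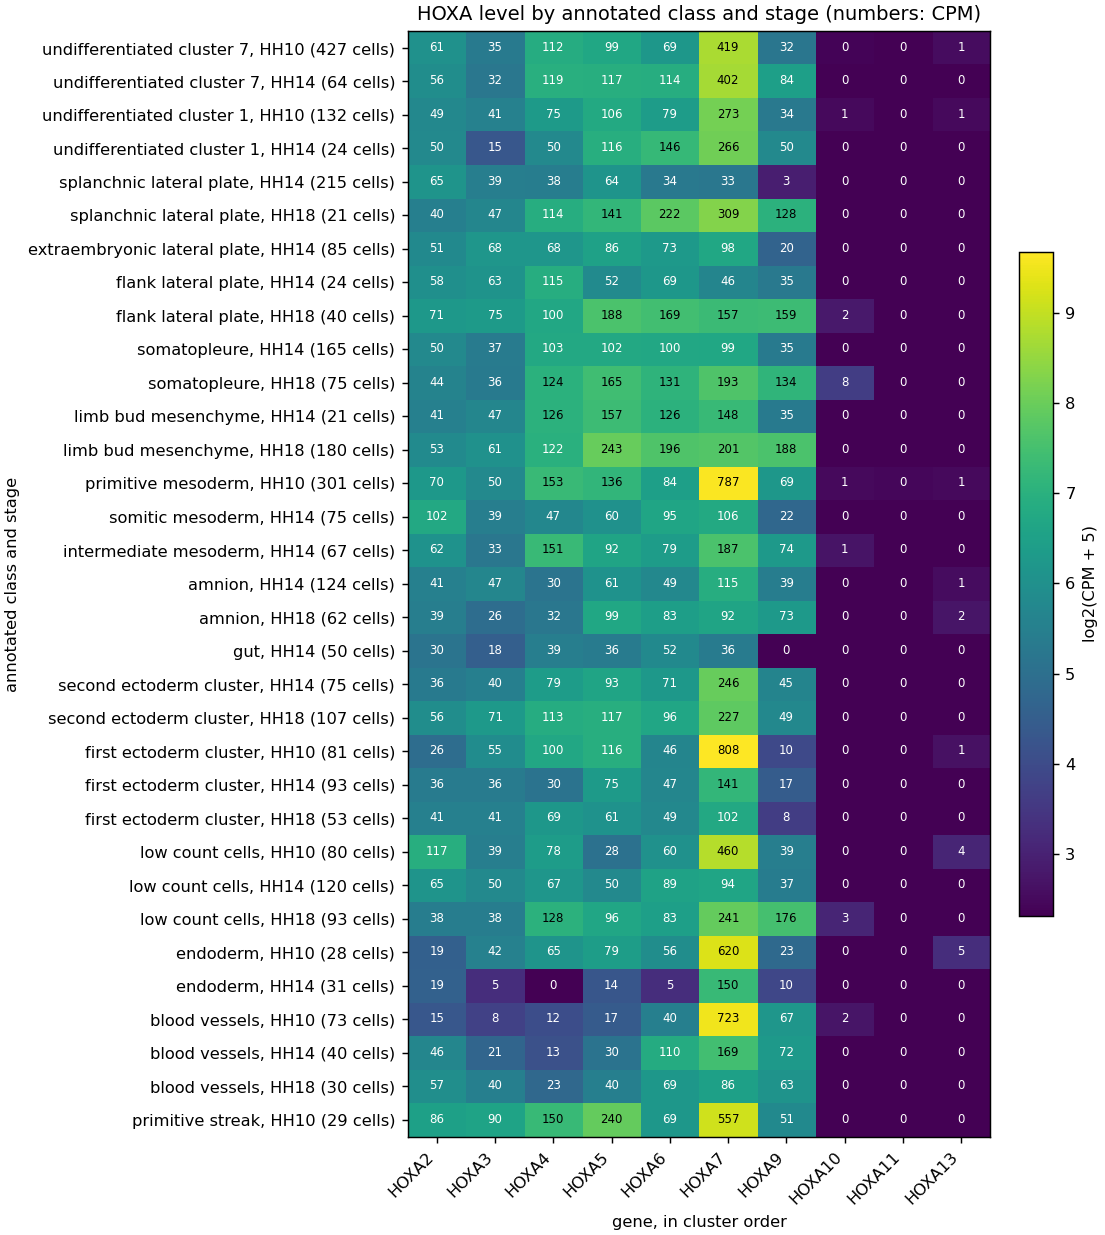
Level of each HOXA gene (columns, in cluster order) in each annotated class and stage with 20 or more cells (rows). Colour is log2(CPM + 5) and the printed numbers are CPM. HOXA7 is brightest in HH10 rows, HOXA9 is highest in HH18 limb bud mesenchyme at 188 CPM, and the columns of HOXA10, HOXA11 and HOXA13 are near 0.

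The share of HOXA UMIs by position in the cluster shows the same data within each sum, independent of the total. In mesenchyme, HOXA2 to HOXA4 gave 25.8%, 36.8% and 23.1% of HOXA UMIs at HH10, HH14 and HH18. HOXA5 to HOXA7 gave 69.9%, 57.8% and 59.8%, and HOXA9 to HOXA13 gave 4.29%, 5.39% and 17.0%. Nearly all UMIs of this last block in mesenchyme were from HOXA9. The summed level of HOXA2 to HOXA4 was 192, 174 and 235 CPM, so their higher share at HH14 came without a higher level. The 95% exact binomial interval of the 5′ share was 15.8% to 18.3% at HH18 and did not overlap those of the other stages. The summed HOXA level was 745, 473 and 1015 CPM at HH10, HH14 and HH18.

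Within classes the 5′ share at HH18 was close to the same value in several classes. It was 17.6% in limb bud mesenchyme, 17.5% in flank, 17.0% in somatopleure and 16.7% in amnion. The levels behind these shares were less alike, at 188, 161, 142 and 74.5 CPM for HOXA9 to HOXA13 together. At HH14 the 5′ share was 5.09%, 7.89%, 6.57% and 10.3% in the same 4 classes. The intervals of both stages overlapped in flank and in amnion and did not overlap in limb bud and somatopleure. In blood vessels the 5′ share was 16.7% at HH18 and already 15.6% at HH14. In low count cells it was 22.3% at HH18 and 8.24% at HH14. It was 6.68% at HH18 and 7.37% at HH14 in the second ectoderm cluster, and 2.07% and 4.41% in the first. In splanchnic lateral plate it was 12.8% at HH18 (7.86% to 19.2%) and 0.978% at HH14. In that class at HH14 the 3′ genes HOXA2 to HOXA4 gave 51.5%. Blood vessels at HH10 had the lowest 3′ share, 3.98%, with 88.3% from HOXA5 to HOXA7.

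**Figure D5:**
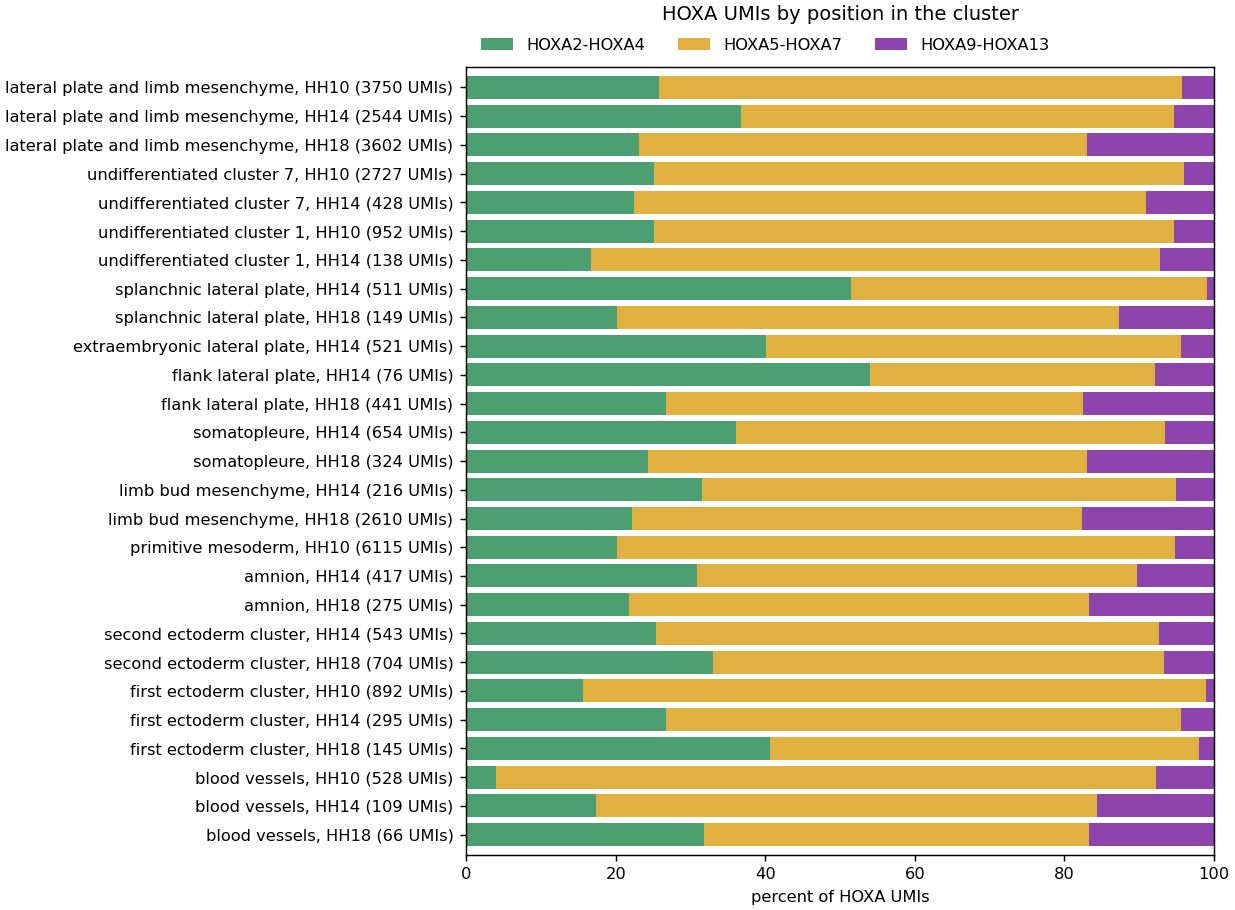
Percent of HOXA UMIs (horizontal axis) from HOXA2 to HOXA4 (green), HOXA5 to HOXA7 (yellow) and HOXA9 to HOXA13 (purple) in mesenchyme and single classes by stage, with the HOXA UMIs behind each bar in brackets. The purple share, in mesenchyme nearly all from HOXA9, is 17.0% in mesenchyme at HH18, against 5.39% at HH14. It is 0.978% in splanchnic lateral plate at HH14.

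Shares of cells with a UMI were taken after each cell was thinned to 2800 UMIs, which left 544, 544 and 292 mesenchymal cells at HH10, HH14 and HH18. HOXA9 was detected in 9.01%, 4.96% and 31.8% of these cells at HH10, HH14 and HH18, and without thinning in 15.9%, 11.4% and 45.8%. HOXA7 was detected in 43.6%, 19.5% and 38.7% of thinned cells, and HOXA5 in 25.9%, 17.1% and 43.2%. In limb bud mesenchyme at HH18, 34.9% of 175 thinned cells had HOXA9. Of 21 thinned red blood cells, all from the HH14 and HH18 libraries, 0 had a UMI of any of these genes, where 3 cells would be 14.3% and the exact upper bound is 16.1%. Before thinning, the 23 red blood cells held 5 HOXA UMIs, or 25.2 CPM with haemoglobin left out of the total. The HH10 library had 0 annotated red blood cells, so it has no such background value. In splanchnic lateral plate at HH14 HOXA9 was found in 1 of 202 thinned cells. The median cell before thinning had 6990, 7094.5 and 8236 UMIs in mesenchyme at HH10, HH14 and HH18, and 8508 UMIs among all 23 red blood cells.

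A mesenchymal cell thinned in this way had a UMI of 1.45 HOXA genes at HH10, 0.989 at HH14 and 2.04 at HH18 on average, and of at most 6 genes. No HOXA gene was seen in 25.7%, 39.9% and 9.59% of cells, and 4 or more in 5.15%, 2.39% and 13%. HOXA9 was the most 5′ gene detected in 8.82%, 4.96% and 31.8% of cells at HH10, HH14 and HH18, and HOXA7 in 36.4%, 16.7% and 21.6%.

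At equal depth, mesenchymal cells with a UMI of HOXA7 had HOXA9 more often than cells without one. At HH10, 16.5% of the 237 mesenchymal cells with HOXA7 also had HOXA9, against 3.26% of the 307 without it. At HH14 these shares were 14.2% of 106 and 2.74% of 438, and at HH18 44.2% of 113 and 24.0% of 179. These shares pool classes that differ in both genes. At HH14 undifferentiated cluster 7 gave 31.6% of HOXA7 and 28.5% of HOXA9 UMIs from 8.61% of all mesenchymal UMIs. Splanchnic lateral plate gave 10.4% and 3.65% from 34.5%. The part of the class mix in the pooled shares was not tested. Within limb bud mesenchyme alone at HH18, HOXA9 was found in 31 of 70 cells with HOXA7 (44.3%), against 30 of 105 without it (28.6%). At HH14 it was found in 0 of 7 limb bud cells with HOXA7, against 2 of 14 without it. HOXA7 was found in 49.3% of the limb bud cells with HOXA6, against 34.0% of those without it. These are counts of cells of 1 library, with no test.

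Genes of the same paralog group in the other HOX clusters are set beside the HOXA genes as values for mesenchyme. In group 9, the HH18 over HH14 folds were 6.72 for HOXA9, 1.85 for HOXB9 (1.42 to 2.41), 3.46 for HOXC9 (2.65 to 4.54) and 10.6 for HOXD9 (7.21 to 16.1). In group 10, HOXD10 had 85 UMIs at HH18 and 1 at HH14, HOXC10 had 2 and 0, and HOXA10 had 6 and 0. In groups 11 to 13, HOXD11 had 2 UMIs at HH18 and 1 at HH14, and the other members present in these tables had 0 at both stages, as did HOXA11 and HOXA13. Between HH18 and HH14, 0 of 8 HOXB genes with enough UMIs were past 2-fold. Of HOXC genes 4 of 5, and of HOXD genes 4 of 5, were higher at HH18 by 2-fold or more, where 3.71% of all genes were higher and 2.99% lower. The clusters were not tested against each other.

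Between HH14 and HH10, the fold was 0.309 for HOXA7 and 0.869 for HOXB7 (0.731 to 1.03). The nearest HOXB values to that of HOXA7 were those of HOXB8, 0.340 (0.314 to 0.369), and HOXB9, 0.348 (0.275 to 0.436), while HOXA9 was 0.828-fold. Of HOXB genes 2 of 8 were past 2-fold, both lower at HH14, and of HOXC genes 2 of 5, both higher at HH14, where 4.34% of all genes were higher and 2.57% lower. None of the 4 HOXD genes with enough UMIs was past 2-fold in this pair.

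Among 37 listed regulators and cofactors of HOX genes, 30 were present. They include the caudal factors, which switch on posterior HOX genes, the MEIS and PBX partners that bind DNA with HOX proteins, and genes of retinoic acid synthesis, breakdown and binding. Between HH14 and HH10, 3 of 22 with enough UMIs were higher and 4 lower by 2-fold or more, and between HH18 and HH14, 5 were higher and 2 lower. Over all genes, 4.34% were higher and 2.57% lower in the first of these pairs, and 3.71% and 2.99% in the second. CDX4, a caudal factor, had 70 UMIs at HH14, against 1150 at HH10 (0.057-fold, 0.0441 to 0.0726), and 1 UMI at HH18. RDH10, which makes retinaldehyde, was 7.54-fold higher at HH14 than at HH10. ALDH1A2, which makes retinoic acid from it, was 3.0-fold higher, and CYP26B1, which degrades retinoic acid, was 0.263-fold with 9 UMIs at HH14, against 32 at HH10.

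At HH18, CRABP-I, a retinoic acid binding protein, had 884 CPM, against 42.0 CPM at HH14, a fold of 21.0. CYP26A1, another retinoic acid degrading enzyme, was 8.95-fold higher (65 UMIs at HH18, against 11 at HH14), and RXRG, a retinoid receptor, 3.99-fold. RDH10, which was higher at HH14 than at HH10, was 0.343-fold at HH18 against HH14 (0.293 to 0.401). ALDH1A2 was 0.831-fold (0.774 to 0.893) in the same pair. At HH18 against HH10 these 2 genes were 2.59-fold and 2.50-fold. Between HH18 and HH10, 7 of 24 genes of the list were higher and 2 lower, where 8.18% and 4.17% of all genes were. CYP26A1 then had 65 UMIs at HH18, against 0 at HH10, CRABP-I was 18.4-fold and RXRG 3.74-fold higher, and CDX4 had 1 UMI at HH18, against 1150 at HH10. The cofactors MEIS1 and MEIS2 were 2.14-fold and 2.42-fold higher at HH18 than at HH10, and these were named after their values were seen.

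The pattern of each member over the 23 combinations with 50 or more cells was compared with all other genes by Pearson's r of log2(CPM + 5), as a description. All points come from 3 libraries, so they share stage and depth. HOXA5 was most like HOXD3 (r = 0.82), BRD7 and TMEM132C, and HOXA6 most like HOXD3 (r = 0.79), HOXD4 (r = 0.79) and CENPX. HOXA9 was most like BPNT1 (r = 0.78), SLC25A33 (r = 0.77) and CRABP-I (r = 0.77), and HOXA7 most like MRPL17 (r = 0.75), METAP1 and SPRY2. HOXA4 was most like NRG4 (r = 0.83), NMRK2 and DTD1, HOXA2 most like GDAP1L1 (r = 0.80), RAD52 and EIF4EBP2, and HOXA3 most like CYP27C1 (r = 0.75), SMAD2Z and C26H6orf106. With the 33 combinations of 20 or more cells, 2 of the 3 genes remained for HOXA5, 1 for HOXA2 and 0 for each of the other 5 members. Among the members themselves, HOXA4 and HOXA5 were most alike (r = 0.71), then HOXA6 and HOXA9 (r = 0.70), and HOXA2 and HOXA7 were least alike (r = -0.10) among the 7 genes with appreciable levels. With the 33 combinations, HOXA4 and HOXA5 stayed most alike (r = 0.79) and HOXA2 and HOXA7 least alike (r = -0.13). HOXA3 and HOXA4 then came second (r = 0.74), and HOXA6 and HOXA9 had r = 0.66.

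In the RefSeq annotation of the assembly GRCg7b, which is not the build used for counting, the HOXA3 gene overlaps HOXA4, HOXA5 and HOXA6, and HOXA9 overlaps HOXA10. Whether counting used the strand and how it treated reads shared by such genes is not given in the sources used here, so values of these members are uncertain to that extent.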

How the data were processed

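The chemistry was 10x Genomics 3′ single-cell, per the labels' protocols, and the submitters' processing notes name Cell Ranger 4.0.0 and the chicken build GRCg6a. For 1 library per stage, the authors deposited UMI counts per gene and cell without normalization. As deposited, the annotation gives percent of mitochondrial and of ribosomal protein UMIs per cell, and classes. The authors' limits for cells are not given in the sources used here, and the highest mitochondrial value was 9.97%. The 3 libraries shared 1 cell barcode. All 3262 cells were used.

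The finer annotated class was used where given and the first-level class otherwise, with 20 cells as the minimum. As lateral plate and limb mesenchyme, 7 classes were joined: undifferentiated clusters 7 and 1, splanchnic, extraembryonic and flank lateral plate, somatopleure and limb bud mesenchyme. Levels are the summed counts of a class in a library over the sum of all UMIs in the same cells. Poisson intervals for levels, conditional binomial intervals for folds and Clopper-Pearson intervals for shares are exact, at 95%, and cover counting error only. A count of 0 is given with the level that 3 counts would have. A gene entered a comparison with 30 UMIs in both sums together, and a fold of 2 described size, so that members low everywhere stay out and no significance is attached. For shares of cells, each cell was thinned to 2800 UMIs, the 10th percentile of mesenchymal cells.

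All 10 members were named. For each with 100 or more UMIs the 3 genes most alike in pattern were named, and from the regulator list up to 4 genes per stage pair with the largest fold past 2. Members and lists were chosen with earlier results of these data known. Alternatives were other scaling (median-of-ratios size factors, totals that leave out genes of haemoglobin, ribosomal proteins and mitochondria), means over cells, thinning, other populations of cells, other minimum counts and folds, and the removal of doublets or of cycling cells (S or G2/M). Scrublet in scanpy 1.11.5 called 2, 5 and 0 doublets at HH10, HH14 and HH18, of which 1, 1 and 0 were mesenchymal. These shares are under 0.5%, so the caller may not have worked, and no doublet was removed. Marker lists for the other cell types of the field were summed as described beside the results. The computation of folds was tested on simulated data with known folds. Python 3.11.15, numpy 2.4.6, scipy 1.17.1 and pandas 2.3.3 were used. Gene sequences were not used here, and 1 result outside the listed genes is not reported here.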

Additional observations from a re-analysis of the deposited data

How the results depend on the processing

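The number of HOXA genes past the threshold changed by more than 1.5 times, or to or from 0, in 6 of 132 counts. With a fold of 4 in place of 2, the count lower at HH14 than at HH10 was 0 instead of 1, and the counts higher at HH18 were 1 instead of 3 against HH14 and 1 instead of 3 against HH10, HOXA9 being the one left. The count lower at HH18 than at HH10 was 1 instead of 0 with median-of-ratios scaling, with means over cells and with all annotated cells, where HOXA7 had folds of 0.495, 0.479 and 0.335. The other 126 of 132 counts stayed within 1.5 times, a limit that treats 2 or 4 genes in place of 3 as unchanged. Some of these counts could not change. Minimums of 10 and 100 UMIs admit the same members as the minimum of 30. Leaving out doublets took away 1, 1 and 0 mesenchymal cells at HH10, HH14 and HH18, too few to matter. Median-of-ratios scaling put the median log2 fold of all genes between HH18 and HH10 at -0.02, against 0.14. Over 17 alternatives for mesenchyme, HOXA9 was 3.82-fold to 8.59-fold higher at HH18 than at HH14 and HOXA7 0.234-fold to 0.471-fold at HH14 against HH10. HOXA5 stayed past 2-fold between HH18 and HH10 in 13 of 17, and HOXA6 between HH18 and HH14 in 15 of 17. HOXA7 came past 2-fold between HH18 and HH14 in 2 of 17, with 2.39 as its highest fold. The alternatives that leave out single classes were chosen after seeing the data. Of 701 folds of single genes, 102 moved by more than counting error and 0 that were past 2-fold changed sign.

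No paired analysis was possible because each stage has 1 library, and replicates could not be left out for the same reason. Sums of fewer than 30 UMIs, as for HOXA10, HOXA11 and HOXA13, could not be read as differences.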
